A study of Rattus norvegicus with 5 samples.

Results

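The apolipoproteins are the proteins that coat lipoprotein particles, and liver cells make and secrete most of them. The genes described here are 10 of them, Apoa1, Apoa2, Apoa4, Apoa5, Apob, Apoc1, Apoc2, Apoc3, Apoe and Apoh, taken as every non-control probe that carries 1 of these symbols in the array files. They have 16 of the 41012 probes on the array, and matching by accession added no further probe. The array holds 35634 genes or transcripts, 15347 of them with a gene symbol.

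Transcripts were measured in Fao cells, a line derived from a rat hepatoma that retains liver-type gene expression. Cells were grown for 2 days with 10% serum and starved of serum for 16 h in 10 nM dexamethasone, a synthetic glucocorticoid, so every sample had been exposed to dexamethasone. The groups are cells at 0, 15, 30, 45 and 60 min after 10 nM insulin was added, with 1 sample and 1 Agilent 1-colour array per time. With 1 array per time, a difference from 0 min carries no p-value and its precision is limited. Untreated samples of matching times were not analysed here, so time in culture and insulin cannot be told apart. Fao is 1 established line, without the other cells of a liver.

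In the liver, newly made Apob receives lipid from the microsomal transfer protein Mttp and leaves the cell as very low density lipoprotein. Apoa1 and Apoa2 form high density lipoprotein. Apoc2 activates lipoprotein lipase, Apoc3 opposes it, Apoa5 promotes it, and Apoe carries particle remnants to receptors on hepatocytes. Insulin is known to restrain secretion of very low density lipoprotein, and in mouse liver it lowers Apoc3 transcription by keeping the transcription factor Foxo1 out of the nucleus.

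Each array has 43379 spots that are not controls, of which 22069 to 24489 exceeded background clearly, and no spot was saturated. A level is the processed signal divided by its array's 75th percentile, on a log2 scale, so 0 is the 75th percentile, and a change is the level at a time minus that at 0 min. The 75th percentile was 253.6 to 299.9 signal units from 0 to 45 min and 480.3 at 60 min. Slide 1 held the first 4 times, in positions that followed time, and slide 2 held 60 min. At 60 min slide and time cannot be told apart, nor can position and time within slide 1. Between repeat spots of bright probes on an array the SD was 0.112 to 0.130, so a change has a technical SD of 0.172 to 0.176. This SD leaves out differences between cultures, labelling reactions and slides. As a check of the labelled cell type, 13 of 13 hepatocyte markers, Alb and Ttr among them, were well above background on all 5 arrays. Their summed signal was 1398, 1428, 1477, 1604 and 1572 times the 75th percentile at 0, 15, 30, 45 and 60 min. Of 21 markers of macrophages, endothelium, stellate cells, bile duct cells and enterocytes, 9 were well above background on all 5 arrays. Among these 9 were the enterocyte markers Vil1, Fabp2 and Cdx2, and also Col1a1, Krt19 and Cd68. Another 9 were well above background on no array, with Adgre1, Cd163, Pecam1, Stab2, Col3a1 and Epcam among them. The summed signal of the 21 was 18.7 to 21.9 across the 5 arrays and 3.46 to 3.95 without Vil1. The part of these differences in the values below was not tested.

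Apolipoprotein transcripts differed from their 0 min level by less than 1.5-fold within the hour. Their range over the 5 times was much like that of all genes, with a median of 0.355 against 0.358. Of the 10 genes, 9 were well above background on all 5 arrays, and Apoh was on none. None of the 9 was 2-fold higher or lower than at 0 min at any time. Among genes measured on both arrays, 0.388%, 0.443%, 0.604% and 1.34% were 2-fold different at 15, 30, 45 and 60 min. None of the 9 reached 1.5-fold either, against 2.01%, 2.08%, 2.79% and 7.23% of genes at these times. With shares this small, the lack of such values among 9 genes does not set them apart from other genes. The samples are bulk RNA, in which fewer cells that express a gene and less RNA per cell cannot be told apart. On its brightest probe no member's change exceeded the 95% bound that repeat spots give a change, 0.336 to 0.346, where 8.82%, 10.5%, 11.0% and 25.8% of genes did. A dim Apob probe did exceed it, with 0.38 at 15 min and 0.58 at 60 min. The bound comes from bright probes, whereas the genes counted include dim ones, so these shares are not matched to the members in brightness.

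The small differences mostly ran upward at the early times. At 15 min 8 of 9 were above their 0 min level, at 30 min 8, at 45 min 6 and at 60 min 4. The share of all genes above 0 min was 58.0%, 55.0%, 54.8% and 51.9%. The median change of the 9 was 0.18 at 15 min, 0.11 at 30 min, 0.05 at 45 min and −0.12 at 60 min, where the median gene lay between 0.02 and 0.03 at all 4 times. The 9 values of a time share the same pair of arrays. In number, 5, 3, 2 and 5 members lay beyond 1 technical SD of bright probes at 15, 30, 45 and 60 min, against 32.9%, 36.6%, 35.5% and 55.8% of genes, dim ones included.

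**Figure D1:**
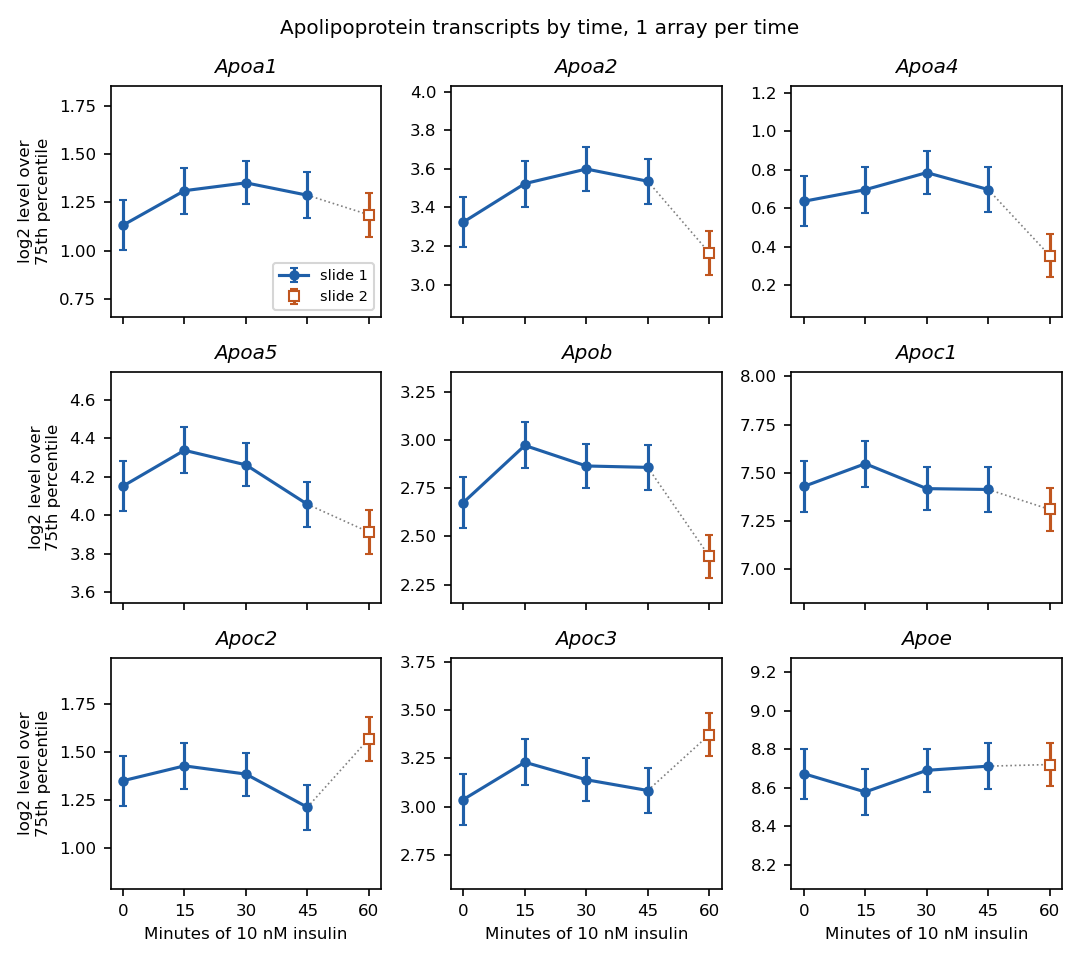
Level of the brightest probe of each of 9 apolipoprotein genes (y axis, log2 of signal over the array's 75th percentile, each panel spanning 1.2 log2 units) against minutes of 10 nM insulin (x axis). Points are single arrays, filled circles on slide 1 and open squares on slide 2, and bars are ± 1 SD between repeat spots of bright probes on that array. Apob, Apoa2, Apoa4, Apoa5 and Apoc1 had their lowest level at 60 min, and Apoc2, Apoc3 and Apoe their highest.

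Apob, the structural protein of very low density lipoprotein, had the widest range of the 9 genes on its brightest probe, which lies at chr6:31547488-31547547 (rn4). Its level was 2.68, 2.97, 2.87, 2.86 and 2.40 at 0, 15, 30, 45 and 60 min. The 15 min value was the highest and 1.23-fold above 0 min, and the 60 min value was the lowest and 1.21-fold below it. The changes were 0.30, 0.19, 0.18 and −0.28. In order of level the times ran 60, 0, 45, 30 and 15 min, and the values at 30 and 45 min differed by 0.01, far less than the technical SD. The range of 0.58 over 5 arrays was wider than that of 82.2% of 16694 genes that exceeded background on every array, and within slide 1 its range of 0.30 was wider than that of 67.1%.

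Other Apob probes did not follow the brightest. The probe at chr6:31546292-31546351 had dim levels of −2.60, −2.22, −2.45, −2.60 and −2.03 from 0 to 60 min, with changes of 0.38, 0.15, 0.00 and 0.58. The probe at chr6:31536084-31536143 had levels of −2.97, −2.90, −3.25, −2.97 and −2.89, with changes of 0.07, −0.28, 0.00 and 0.09. At 60 min the brightest probe was thus below its 0 min level and both dim probes were above theirs. The mean change over the 3 probes at 60 min was 0.13, the opposite sign to the brightest probe alone. The 2 remaining Apob probes, at chr6:31539276-31539335 and chr6:31539136-31539195, were well above background on 2 arrays and on none. The direction of Apob at 60 min therefore depends on the probe.

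**Figure D2:**
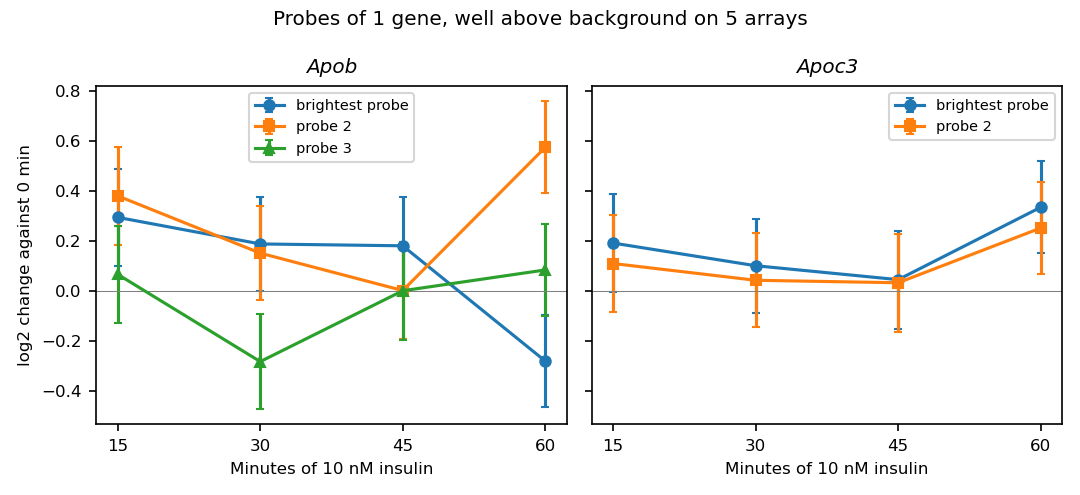
Change against 0 min (y axis, log2) at 15, 30, 45 and 60 min of insulin (x axis) for each Apob probe (left) and Apoc3 probe (right) that was well above background on all 5 arrays. Bars are ± 1 technical SD from repeat spots of probes of any brightness, 0.184 to 0.196. The 3 Apob probes separate at 60 min, at −0.28, 0.58 and 0.09, whereas the Apoc3 probes lie at 0.34 and 0.25.

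Apoa1, the main protein of high density lipoprotein and an activator of the acyltransferase Lcat, had levels of 1.13, 1.31, 1.35, 1.29 and 1.19. All 4 later arrays were above the 0 min array, with changes of 0.18, 0.22, 0.16 and 0.05, and its range of 0.22 was wider than that of only 19.2% of genes. Apoa2, the other abundant protein of that particle, is probed at chr13:87115432-87115491 and had levels of 3.32, 3.52, 3.60, 3.54 and 3.16. Its changes were 0.20, 0.28 and 0.21 on slide 1 and −0.16 at 60 min. Apoa4, which rodent liver makes as well as the intestine and which joins high density lipoprotein and chylomicrons, is probed at chr8:49233335-49233394. Its levels were 0.64, 0.70, 0.79, 0.70 and 0.35, with changes of 0.06, 0.15, 0.06 and −0.28. All 3 genes had their highest level at 30 min, by margins over their neighbours of 0.09 or less, which is within the technical SD.

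Apoa5, which promotes hydrolysis of triglyceride by lipoprotein lipase, is probed at chr8:49255236-49255295. Its level was 4.15, 4.34, 4.26, 4.06 and 3.91, highest at 15 min and lower at each time after that. The changes were 0.19, 0.11, −0.09 and −0.24, and the range of 0.42 was wider than that of 62.7% of genes. Apoc2, the cofactor of lipoprotein lipase, had levels of 1.35, 1.43, 1.39, 1.21 and 1.57 on the probe at chr1:78979140-78979199. Its changes of 0.08, 0.03, −0.14 and 0.22 put the 45 min array lowest and the 60 min array highest. Its other probe, designed on an expressed sequence tag at chr1:78979041-78979100, was on no array well above background. That probe lists its coordinates in ascending order and the first in descending order. Over 8974 probes with a stranded gene in the reference table, 95.3% had the order that matches the strand of their gene.

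Apoc3, which inhibits lipoprotein lipase and slows particle clearance, had levels of 3.04, 3.23, 3.14, 3.08 and 3.37 on its brighter probe. The other probe gave 2.50, 2.61, 2.55, 2.54 and 2.76. Both probes were above their 0 min level on every later array, by 0.19, 0.10, 0.05 and 0.34 on the brighter and by 0.11, 0.04, 0.03 and 0.25 on the other. Both had the same order of times, with 0 min lowest, 60 min highest and 15 min next to it. The value of 0.34 at 60 min was the largest change of any member on its brightest probe, 1.26-fold, and was just inside the 95% bound from repeat spots, 0.338. It lay outside that bound when arrays were scaled by their median (0.35) and with normexp background (0.47). It stayed inside with quantile normalization (0.31), the series matrix (0.33), the mean over probes (0.29) and the 15 min array as baseline (0.14). Scaling by the 75th percentile of probes well above background on all 5 arrays (0.32) also left it inside. The array files give no position for the probes of Apoc3 and Apoa1.

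Apoc1, which hinders uptake of remnants by hepatic receptors, is probed at chr1:78996746-78996805 and had levels of 7.43, 7.55, 7.42, 7.41 and 7.31. Its changes were 0.12, −0.01, −0.02 and −0.12, and the 3 times of 0, 30 and 45 min lay within 0.02 of each other. Apoe, which carries remnants to hepatic receptors, is probed at chr1:79003795-79003854. Its levels of 8.67, 8.58, 8.69, 8.71 and 8.72 had a range of 0.14, the narrowest of the 9, and 5.83% of genes had a narrower one. Apoe was the only member below 0 min at 15 min, by −0.09, and its later changes were 0.02, 0.04 and 0.05. Another probe, which the files describe as the rat Apoe gene, at chr1:79005854-79005913, was well above background on no array. Apoh, a phospholipid-binding plasma protein, has 1 probe at chr10:97732840-97732899, with processed signals of −0.37, 1.29, 1.45, −1.71 and −0.58, which give only an upper bound on its level.

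The median range of the 9 genes over 5 arrays was 0.355, against 0.358 for all genes, and within slide 1 it was 0.214 against 0.229. On the brightest probes, the 4 largest steps between neighbouring times lay between 45 and 60 min. Apoa1, Apoa5, Apoc1 and Apoe each had their own largest step earlier. From 45 to 60 min Apob differed by −0.46, Apoa2 by −0.37, Apoa4 by −0.34 and Apoc2 by 0.36, and these 4 of 9 exceeded the 95% bound from repeat spots for that step (0.320), as did 30.0% of genes. On its brightest probe no member did so from 15 to 30 min or from 30 to 45 min, where 7.35% and 7.52% of genes did. The dim Apob probe at chr6:31536084-31536143 differed by −0.35 from 15 to 30 min. These bounds come from bright probes, and the genes counted include dim ones. Apoc3 differed by 0.29 at the last step, Apoa5 by −0.14, Apoa1 and Apoc1 by −0.10 each and Apoe by 0.01. From 30 to 45 min 8 of 9 differed downward, by 0.20 at most (Apoa5), and Apoe by 0.02 upward. Apob and Apoc1 were among the 8 at only −0.007 and −0.004, where the technical SD of that step was 0.162. The median gene differed by −0.003 at that step, and the share of all genes that differed downward was not computed. The SD of the step over genes was 0.32 at the last step and 0.19 from 30 to 45 min, and only the last step crosses slides.

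**Figure D3:**
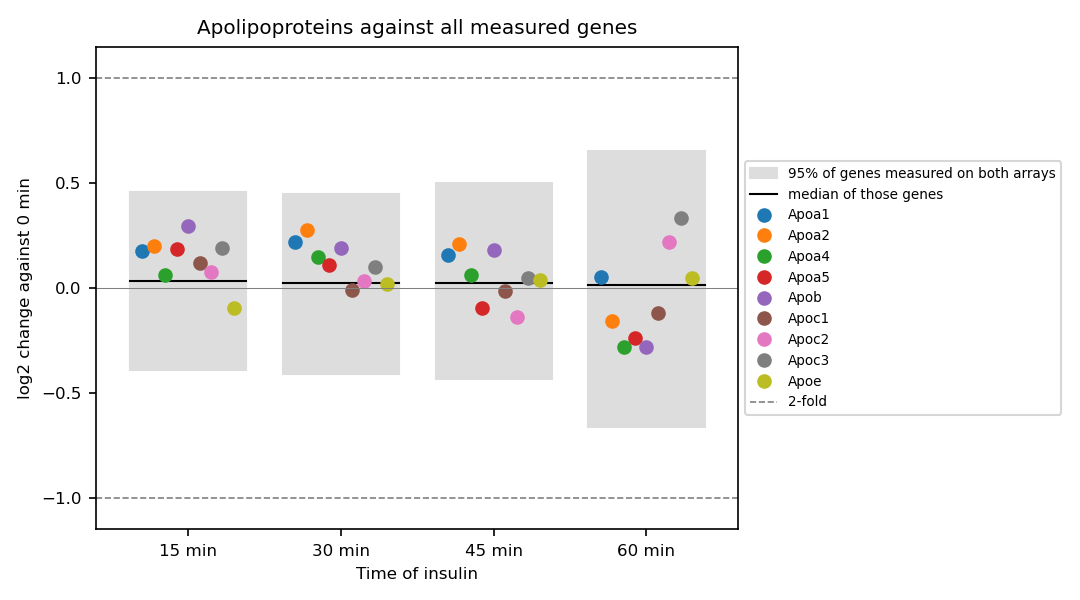
Change against 0 min (y axis, log2) of 9 apolipoprotein genes, as coloured points, at 15, 30, 45 and 60 min of insulin (x axis). Grey bars hold 95% of genes measured on both arrays, black lines are their median, and dashed lines mark 2-fold. All 9 genes lie inside the grey bar at each time, with 8 of 9 above 0 at 15 and 30 min and 4 of 9 at 60 min.

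A slope on time over all 5 arrays, fitted with limma for 20484 genes with Benjamini-Hochberg adjustment over them, called no gene at a 5% false discovery rate (percent called 0.0), while 1760 genes (8.59%) had an unadjusted p under 0.05. None of the 9 apolipoproteins did. The steepest slope was that of Apoa5, −0.30 ± 0.17 log2 units per hour (SE), with an unadjusted p of 0.134 and a limma adjusted p of 0.608. Apob had −0.27 ± 0.25 and Apoc3 0.21 ± 0.16 log2 units per hour, with limma adjusted p of 0.731 and 0.689. On simulated data the same fit called 21% of genes given a slope of 1 log2 unit per hour and 69% of those given 2. Slopes as small as those of the members were not simulated, so the lack of calls does not show that their courses are flat. Without the 60 min array the slope of Apob was 0.18, that of Apoa5 −0.14 and that of Apoc3 0.02. The slopes of Apoa2, Apoa4 and Apoc2 also changed sign without that array, to 0.28, 0.11 and −0.18 log2 units per hour, against −0.12, −0.22 and 0.09 over 5 arrays.

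The genes form a pair of clusters in the rat genome. In the reference gene table Apoc2, Apoc4, Apoc1 and Apoe follow each other on chromosome 1, and Apoa1, Apoc3, Apoa4 and Apoa5 on chromosome 8. Their 60 min changes were of both signs within a cluster. On chromosome 8, Apoc3 had a change of 0.34 at 60 min, Apoa1 of 0.05, Apoa4 of −0.28 and Apoa5 of −0.24, while at 15 min all 4 lay between 0.06 and 0.19. On chromosome 1 the 60 min changes were 0.22 for Apoc2, −0.12 for Apoc1 and 0.05 for Apoe. Apoc4, which lies between Apoc2 and Apoc1, had levels of 4.93, 5.14, 4.97, 5.09 and 4.93 on its brighter probe.

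Promoter sequences of RefSeq on assembly GRCr8 were found for 6 of the 10 genes, in 10 entries, and the 250 bases before each start were searched on both strands for 3 motifs. None was found for Apoa1, Apoa2, Apob and Apoc3, so these genes were not searched. The forkhead motif TGTTTAC, which factors such as Foxo1 bind, is in 3.21% of 33469 promoters of this length and was found in Apoh. The variant TGTTTGC is in 4.16% and was found in Apoa5. The TATA box letters TATAAA are in 12.9% and were found in Apoc2 and Apoa5. The entries of Apoc1, Apoe and Apoa4 hold none of the 3. One window with a match is shown per gene, because forkhead factors are a known target of insulin and the TATA box places the start, 5′ to 3′ on the strand of the gene, with the matched letters in capitals. They are Apoa5 (chr8:55457621-55457870, plus strand), whose variant lies at −74 to −68 and TATA box at −30 to −25 from the start, Apoc2 (chr1:88462366-88462615, minus strand), with a TATA box at −40 to −35, and Apoh (chr10:93841742-93841991, plus strand), with the forkhead motif at −110 to −104. A further Apoa5 entry (chr8:55457775-55458024), for a start downstream of the first, holds the same variant and TATA box at −228 to −222 and −184 to −179, and the variant again on the opposite strand at −36 to −30.
Apoa5: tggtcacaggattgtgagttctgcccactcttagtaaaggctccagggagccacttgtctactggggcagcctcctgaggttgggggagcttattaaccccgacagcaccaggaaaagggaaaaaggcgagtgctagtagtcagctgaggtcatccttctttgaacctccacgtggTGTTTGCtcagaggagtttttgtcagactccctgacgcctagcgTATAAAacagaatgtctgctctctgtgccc
Apoc2: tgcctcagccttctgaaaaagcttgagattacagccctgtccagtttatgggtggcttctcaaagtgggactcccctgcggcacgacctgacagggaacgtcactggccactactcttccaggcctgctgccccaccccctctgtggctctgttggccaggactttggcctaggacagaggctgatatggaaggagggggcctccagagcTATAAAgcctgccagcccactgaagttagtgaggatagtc
Apoh: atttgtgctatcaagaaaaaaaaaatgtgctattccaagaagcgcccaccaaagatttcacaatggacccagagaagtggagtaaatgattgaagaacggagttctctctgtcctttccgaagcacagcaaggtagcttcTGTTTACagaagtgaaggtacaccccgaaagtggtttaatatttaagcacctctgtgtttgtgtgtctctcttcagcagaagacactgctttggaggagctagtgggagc
A match is a description of these letters and not a bound site. Apoa5, with the variant, had changes of 0.19 to −0.24, and Apoc2, without either forkhead form in this window, −0.14 to 0.22.

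Among the genes listed as making, receiving and processing the same particles, Angptl4 was the only one 2-fold different from 0 min at any time. In a list of 10 other apolipoproteins and related genes on the array, 9 were measured and none was 2-fold different at any time. This list also holds the acyltransferase Lcat, the lipid transfer protein Pltp and the receptor Apobr, which are not apolipoproteins. Lcat and Pltp are counted again among the lipases and lipid transfer genes below. Among genes measured on both arrays, as these 9 were, 0.388%, 0.443%, 0.604% and 1.34% were 2-fold different at 15, 30, 45 and 60 min. With genes well above background on only 1 array counted as bounds, the shares were 2.37%, 2.16%, 2.85% and 3.79%. The list's median change was 0.05 at 15 min and 0.11 at 60 min. Apom, a carrier of sphingosine phosphate on high density lipoprotein, had the lowest mean change of the list, with −0.11, −0.13, −0.26 and −0.02. Clu, also called apolipoprotein J, had −0.01, 0.08, 0.09 and 0.12. Apobr, a receptor for apolipoprotein B, had the highest, with 0.11, 0.11, 0.31 and 0.48.

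Of 14 genes of lipoprotein assembly and secretion on the array, 13 were measured at 15, 30 and 45 min and 12 at 60 min. No member of the list reached 2-fold. Mttp, which loads Apob with lipid, had changes of 0.19, 0.08, 0.12 and −0.07 on its brightest probe, and 0.13, 0.23, 0.26 and 0.05 on the dimmer one. Apobec1, the enzyme that edits Apob messenger RNA and does so in rat liver as well as intestine, had −0.05, 0.06, 0.04 and 0.36. The list's median change was 0.00 at 15 min and 0.11 at 60 min.

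Among receptors and uptake genes 11 of 15 were measured, and none was 2-fold different. Scarb1, the receptor for high density lipoprotein, had changes of 0.00, −0.15, −0.11 and 0.42 on the brightest probe, but −0.24, 0.07, −0.28 and −0.04 on another.

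Among lipases, their regulators and lipid transfer genes, 8 of 12 were measured. Angptl4, which inhibits lipoprotein lipase from outside the cell, was the only one 2-fold different, with levels of −0.30, −0.03, −0.60, −0.64 and −1.40 and changes of 0.27, −0.29, −0.33 and −1.10. Lipc, hepatic lipase, had 0.13, −0.07, −0.05 and 0.12. Lcat was highest in the list, with 0.04, 0.09, 0.10 and 0.11. Lpl itself was on no array well above background.

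In the list of lipid efflux and acyl transfer genes 11 of 12 were measured and none was 2-fold different. Abca1, which hands cholesterol to Apoa1, had changes of 0.25, 0.17, 0.07 and −0.45. Osbp, an oxysterol-binding protein, had the highest mean change with 0.02, 0.12, 0.05 and 0.10, and Nceh1, a cholesteryl ester hydrolase, the lowest with −0.34, −0.25, −0.16 and −0.15.

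Transcription factors known to act on apolipoprotein genes were measured for 26 of 28 genes at 15 min and for 27 at 60 min, and none was 2-fold different. Among the 24 well above background on all 5 arrays, Cebpb, a liver-enriched factor, had the highest mean change, with −0.04, 0.19, 0.48 and 0.66. Nr0b2, a nuclear receptor that represses other receptors, had the lowest, with 0.20, −0.16, −0.25 and −0.40. Foxo1 had 0.23, 0.15, 0.09 and −0.08, a measure of its transcript and not of its location in the cell. Hnf4a, an activator of many apolipoprotein genes, had −0.05, 0.01, 0.11 and 0.01 on its brightest probe, and Creb3l3, which activates Apoa4, Apoa5 and Apoc2 in mouse liver, had 0.09, 0.01, 0.13 and 0.09. Nr1h3, an oxysterol receptor, had 0.09, 0.17, 0.26 and −0.44, and Ppara, a fatty acid receptor, had 0.01, −0.07, 0.03 and −0.13. No gene of any list was called by the limma slope.

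**Figure D4:**
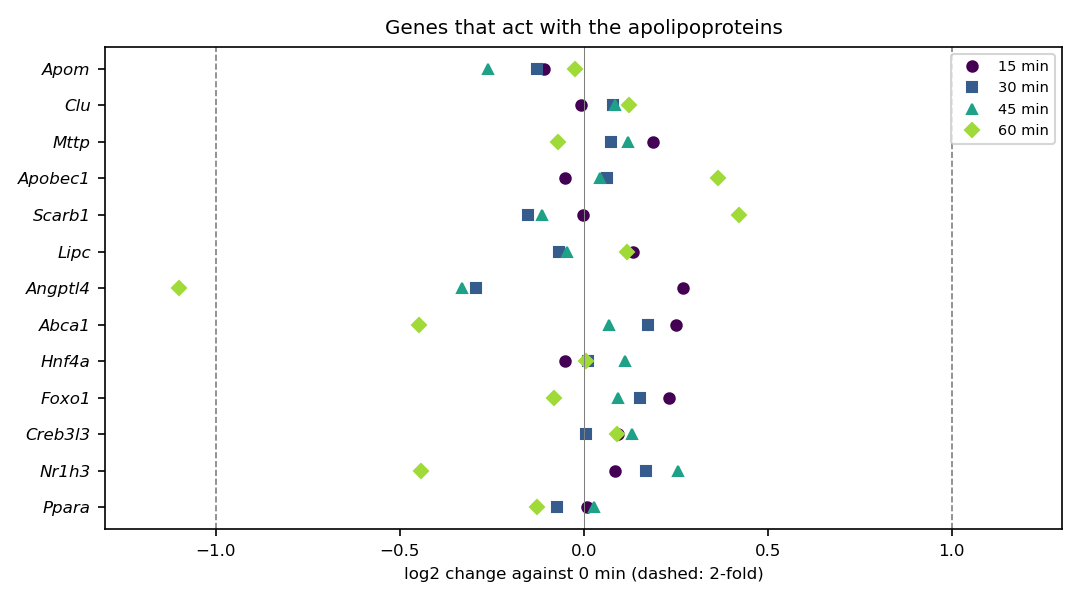
Change against 0 min (x axis, log2, dashed lines at 2-fold) of 13 genes that act with the apolipoproteins, 1 per row, at 15, 30, 45 and 60 min of insulin (symbols). Angptl4 at 60 min, at −1.10, is the only value past 2-fold.

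The genes whose course was nearest to that of the brightest Apob probe, by root mean square difference over the 4 changes among 8835 named genes that exceeded background on every array, were Washc4 (0.028), Rab14 (0.033), Sec61b (0.038), Slc44a1 (0.038) and Tekt2 (0.040). The median candidate differed from Apob by 0.291 and the median of the other apolipoproteins by 0.181. Sec61b, for example, had changes of 0.26, 0.25, 0.20 and −0.26. Likeness over 5 arrays is a description, and all these courses share the 0 min array and the slide of the 60 min array.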

How the data were processed

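The scanner files deposited by the authors hold the intensity of every spot of rat array design 014879, annotated on rn4. Per the file headers, the deposited intensity is the processed signal of Agilent Feature Extraction 9.5.3.1, with a spatial background subtracted. For 19777 probes, the series matrix deposited by the authors gives log2 values. The step behind it was not given in the sources used here. Its columns correlated at 0.9993 to 0.9999 with the median-centred levels used here, so scale, centring and direction were settled from the values (column medians 0.00). Groups were the times in the labels.

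Control and outlier spots were left out, spots of a probe averaged, signals divided by the array's 75th percentile, values under the lowest signal well above background set to it, and log2 taken. A gene was read on its brightest probe. Changes were counted from 2-fold, as bounds where only 1 array was well above background. Technical SDs came from probes with at least 8 usable spots. Slopes were fitted with limma 3.58.1 (R 4.3.3) on all genes, after a test on simulated data. Tables were handled in pandas 2.3.3 and numpy 2.4.6 under Python 3.11.15, and plots drawn with matplotlib 3.10.9.

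Named genes were all members, 15 listed pathway genes, the highest and lowest mean change at 30, 45 and 60 min of each list (among genes clearly over background on every array), and the 5 genes nearest to the member with the widest range. Apoc4 was added as a neighbour after its values were seen. A few genes the rule names are not reported here. The members and lists were chosen with earlier results of these data known. GRCr8 tables gave names, gene order and promoters only, and exons and untranslated regions were not assigned. Scaling, background, filters, probe choice, baseline and left-out arrays were varied.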

Additional observations from a re-analysis of the deposited data

How the results depend on the processing

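No paired analysis was possible because the labels give no replicate numbers and each time has 1 array. No apolipoprotein reached 2-fold under any of 10 alternatives. The median change at 15 min was −0.39 with normexp background, which 5 spots far below their local background distorted, and 0.14 after a refit without them, a setting chosen after seeing the data. With normexp on all spots Apoe was at −0.81 and Apoc1 at −0.59 at 15 min, the only 2 values past 1.5-fold among 315. Of these 315, 28 had the other sign. Apoc3 at 60 min passed the 95% bound from repeat spots (0.338) with the median of each array (0.35) and with normexp (0.47, refitted or not). With normexp on all spots Apoa2, Apoa5, Apoc1, Apoc3 and Apoe passed the bound of 15 min (0.346), at −0.39 to −0.81. The share of all genes past it in that setting was not computed. The setting shifted many genes, as 3332 were 2-fold different at 15 min, against 444 in the main setting. Against the 15 min array the medians were −0.04, −0.11 and −0.24 at 30, 45 and 60 min. In that setting Apob (−0.575), Apoa5 (−0.424), Apoa2 (−0.359) and Apoa4 (−0.342) at 60 min were beyond the 0.338 used against 0 min. This bound belongs to another pair of arrays, and the share of all genes beyond it against the 15 min array was not computed. The comparison crosses slides. In the others at 60 min that do so, 25.8% of genes exceeded the bound against 0 min and 30.0% that against 45 min. These values therefore do not set the named genes apart from other genes. Apoc2, Apoc3 and Apoe were above the 15 min array at 60 min, by 0.14 each. Within slide 1 the changes at 15, 30 and 45 min are those reported and 60 min has none. Taking the mean over probes moved the 60 min median to 0.05 and Apob to 0.13. The slope fit called 1 gene with no filter on dim probes, 2 when dim genes on any array were left out, 2 with the series matrix and 0 with any array left out, none of them an apolipoprotein (smallest limma adjusted p 0.424). Of 117 slopes 8 had the other sign, and 3 genes (Apoa5, Apoc3 and Apoe) kept 1 sign throughout. Without the 0 min array the slope of Apoa1 was −0.18, against 0.03. The number of all genes 2-fold different at 15, 30, 45 and 60 min was 444, 403, 535 and 756. It was 67, 76, 104 and 235 with the mean over probes well above background on both arrays, where the brightest probe under the same limit gave 67, 76, 104 and 239. It was 3698, 3850, 3617 and 3807 with neither filter nor floor on dim probes, 3332, 40, 53 and 184 with normexp, 39 at 15 min after the refit, and 48, 64, 84 and 181 with the series matrix. At 1.5-fold it was 940, 936, 1173 and 2191. Signal over background limits Apoh, Lpl and the dim Apob probes, and 1 array per time limits every value.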

Other observations

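Krt19, a bile duct marker, had changes of 0.11, 0.31, 0.15 and 0.07 at 15, 30, 45 and 60 min, and Clec4f, a marker of liver macrophages, had 1.29, −0.06, −0.23 and −0.45 on a dim probe, so that its single 2-fold value lay on the 15 min array. Vil1, a brush border protein used as an enterocyte marker, had changes of −0.04, 0.19, 0.15 and −0.07. Among hepatocyte markers Fgg, a fibrinogen chain, had the highest mean change, with −0.20, −0.15, 0.24 and 0.71 on its brightest probe and −0.18, 0.03, 0.39 and 0.09 on another, and Tat, tyrosine aminotransferase, the lowest, with −0.29, −0.08, −0.05 and 0.13. The dimmer Apoc4 probe had changes of −0.07, −0.12, −0.18 and 0.10.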
